A study of Mus musculus with 32 samples.

Results

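The 10 genes described here make up the core of MHC class I antigen presentation and were chosen by name from the 18588 genes of the deposited table: the heavy chains H2-K1 and H2-D1, the light chain B2m, the immunoproteasome subunits Psmb8, Psmb9 and Psmb10, the peptide transporter Tap1 and Tap2, tapasin (Tapbp) and the transactivator Nlrc5. They were measured in microglia from female rTg4510 and wild type (WT) mice of 2, 4, 6 and 8 months of age. In rTg4510 mice human tau with the P301L mutation is made in forebrain neurons, from a transgene that needs a second transgene, the tetracycline transactivator under the CaMKIIα promoter, and that stays on unless doxycycline is given. WT animals were littermates without either transgene, on the mixed 129/FVB F1 background, and the rTg4510 strain label stands for the bitransgenic animals. Each library was made from cells captured with CD11b magnetic beads out of the pooled forebrains of 8 to 10 animals, so the libraries of a group are separate pools and p-values measure the spread between pools. The results rest on 28 libraries: groups of 2- and 6-month mice held 4 libraries each, and those of 4- and 8-month mice 3 each. A further 4 libraries (replicate 3 of both genotypes at 4 months, replicate 4 of both at 8 months) had failed the RNAseq QC of the study.

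MHC class I molecules display peptides from the inside of a cell to CD8+ T cells. The proteasome cuts proteins into peptides, and after exposure to interferon its catalytic subunits are partly replaced by those of the immunoproteasome. The TAP transporter then carries the peptides into the endoplasmic reticulum, where tapasin helps to load them onto a heavy chain bound to B2m, and without B2m most class I molecules do not reach the cell surface. NLRC5 is a transcriptional coactivator that acts at the promoters of these genes together with RFX, CREB/ATF and NF-Y factors. Microglia carry little class I in the healthy brain and more in an inflamed one.

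Values are log2 gene signals, median normalized over all genes, so a difference of 1 is a doubling. The table holds no read totals, and the signals are not scaled to gene length, so levels are compared between libraries and not between genes. A gene was called where the FDR was under 0.05 and the change above 1.5 fold, in a limma model of all 8 groups. Microglia markers were present throughout, with none of the 8 on the list near the floor of the table in every library of a group. Their summed log2 level was 14.98 to 15.13 in WT and 14.60 to 14.81 in rTg4510 libraries at 6 months. Of the 8, 3 were called lower at 6 months (limma), Itgam (CD11b, the capture antigen, log2 fold change -0.62) and the homeostatic markers Tmem119 (-0.78) and Sall1 (-0.86), and 0 higher. Aif1 (0.36) was among those higher by FDR alone. All 6 neutrophil markers were called lower at 6 and 8 months, where 8.54% and 5.37% of all genes were. The summed log2 level of these 6 markers was 7.36 to 8.14 in rTg4510 against 8.99 to 10.28 in WT libraries at 6 months. At 8 months it was 7.73 to 9.04 against 9.94 to 10.31. Of 7 T cell markers the table holds Cd3e and Lck, which were no more than 3 counts above the lowest value in 14 and 8 of the 28 libraries, and neither was called at any age. Summed levels of the 6 border macrophage markers overlapped between the genotypes at 6 months (10.08 to 10.49 in rTg4510 and 10.37 to 10.91 in WT), as did those of the 5 NK cell markers (6.93 to 7.26 and 6.61 to 7.30), of which 1 was called higher and 3 lower. All 6 border macrophage markers had a log2 fold change below 0 at every age (-0.84 to -0.27 at 6 months), and 1 was called lower, at 6 months. At 6 months 3 of 5 endothelial markers were called lower and 1 higher, and 2 of 4 astrocyte markers lower and 1 higher. Of 5 monocyte and dendritic cell markers 2 were called lower, as was 1 of 2 neuron markers. Among 4 B cell and 4 oligodendrocyte markers 0 were called at 6 months. At 4 months 2 of the 4 B cell markers were called lower and 0 higher, where 4.33% of all genes were called lower. The part of these cell types in the values below was not tested. Fewer cells of a type and less RNA per cell cannot be told apart in such libraries.

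All but B2m, Psmb10 and Nlrc5 lie in or beside the MHC on chromosome 17 of GRCm38. Psmb9 (chr17:34182030-34187330), Tap1 (chr17:34187556-34197225), Psmb8 (chr17:34198195-34201454) and Tap2 (chr17:34204479-34216321) form a block of 34292 bases. H2-K1 (chr17:33996012-34000619) and Tapbp (chr17:33919478-33929290) lie on one side of the block and H2-D1 (chr17:35263094-35267497) on the other, while B2m lies at chr2:122147687-122153082, Nlrc5 at chr8:94434335-94527272 and Psmb10 at chr8:105935728-105938392. H2-K1, H2-D1 and B2m, the genes with the clearest genotype difference, have the elements of a class I promoter in the 250 bases before their start sites, and these are printed so that they can be compared. The sequences are those of RefSeq for GRCm38.p6, 5′ to 3′ along the gene, and are of the C57BL/6 reference, not of the haplotypes of these mice. Capitals mark matches, on either strand, to a CCAAT box (here called inverted where it lies on the other strand), the 10-base NF-kB consensus, the CRE core with the letters TGACG and an IRF element with the letters AANNGAAA. The first 3 lines give the stretch with the NF-kB consensus and the IRF element (chr17:34000430-34000458, minus strand; chr17:35262923-35262951, plus strand; chr2:122147550-122147570, plus strand).
H2-K1: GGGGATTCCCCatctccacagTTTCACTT
H2-D1: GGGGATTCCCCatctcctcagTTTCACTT
B2m: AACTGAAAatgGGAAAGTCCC
The next 3 lines give the stretch of 30 bases from the CRE core to the inverted CCAAT box (chr17:34000359-34000388, chr17:35262993-35263022 and chr2:122147609-122147638, strands as above).
H2-K1: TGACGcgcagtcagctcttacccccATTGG
H2-D1: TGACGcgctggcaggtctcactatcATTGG
B2m: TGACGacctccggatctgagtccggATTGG
The last line gives the whole B2m window (chr2:122147437-122147686).
B2m: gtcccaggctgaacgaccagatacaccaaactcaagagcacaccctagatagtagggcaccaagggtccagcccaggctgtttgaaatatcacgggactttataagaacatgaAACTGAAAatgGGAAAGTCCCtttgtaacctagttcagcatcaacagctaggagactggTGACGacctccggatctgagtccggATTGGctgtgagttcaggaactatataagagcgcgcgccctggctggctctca

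All 4 motifs occur in the windows of H2-K1, H2-D1 and B2m. Of 32851 such windows in the RefSeq table, 21.3% hold the IRF element, 17.8% the CRE core, 33.8% the CCAAT box, 7.25% the NF-kB consensus, and 27 windows (0.0822%) hold all 4. From the first base of the CRE core to the first base of the inverted CCAAT box there are 25 bases in each of the 3 windows. Over 192 aligned columns the H2-K1 and H2-D1 windows were 89.6% identical. The order runs from the NF-kB consensus to the IRF element in H2-K1 and H2-D1 and the other way in B2m. In H2-K1 and H2-D1 the NF-kB matches lie on both strands and are shifted by 1 base, and no match of one motif overlaps that of another in these 3 windows. The Tap1 and Psmb9 windows, whose start sites are 226 bases apart on opposite strands, cover largely the same bases (chr17:34187306-34187555 and chr17:34187331-34187580). The CRE core and the CCAAT box that both hold are the same matches, read from opposite strands. The Tapbp window holds the CCAAT box at 2 positions, and the Psmb8 and Psmb10 windows hold none of the 4. No window was found for Nlrc5 or Tap2, so their promoters were not searched for the motifs. The motifs were chosen from the known class I elements with these windows in view, and a match is a description of letters, not a site of binding. GENCODE M21 starts 1 transcript of H2-D1 upstream of the RefSeq start, so that its window is exonic there, and the RefSeq span of H2-K1 reaches beyond its window.

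H2-K1, a classical heavy chain, was higher in rTg4510 microglia from 4 months on, by 1.91 fold at 4 months and 2.61 fold at 8 months. At 2 months the log2 signals of H2-K1 were 5.99, 5.90, 5.87 and 5.88 in the WT libraries and 6.11, 6.02, 6.06 and 6.03 in the rTg4510 libraries. At 4 months they were 6.10, 6.04 and 5.98 in WT and 6.94, 6.94 and 7.04 in rTg4510. Every rTg4510 library lay above every WT library at both ages, by a narrow margin at 2 months and by a wide one at 4 months. At 6 months the WT libraries stood at 6.10, 5.80, 6.28 and 6.15 and the rTg4510 libraries at 7.13, 7.17, 7.15 and 7.43. At 8 months they stood at 6.06, 6.46 and 5.90 and at 7.44, 7.71 and 7.43. The groups stayed apart, although WT replicate 2 at 8 months was the highest of all WT libraries. The H2-K1 log2 fold changes were 0.14 (SE 0.10, FDR 0.568, limma) at 2 months, 0.93 (SE 0.12, FDR 4.17e-06) at 4 months, 1.14 (SE 0.10, FDR 1.77e-08) at 6 months and 1.39 (SE 0.12, FDR 1.67e-08) at 8 months.

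H2-D1, also a classical heavy chain, had the highest log2 fold change of the 10 genes at 4, 6 and 8 months. At 2 months its log2 signals were 5.62, 5.79, 5.78 and 5.81 in WT and 6.10, 6.01, 6.18 and 5.98 in rTg4510. The 2 groups did not overlap at 2 months, but the difference did not pass the test across all genes (log2 fold change 0.31, SE 0.12, FDR 0.173, limma). At 4 months the signals were 6.00, 5.69 and 5.77 in WT and 7.22, 7.24 and 6.96 in rTg4510. At 6 months WT libraries lay at 6.17, 5.83, 6.29 and 6.03 and rTg4510 libraries at 7.44, 7.49, 7.52 and 7.55. The rTg4510 libraries were close together at 6 months (SD 0.047, n = 4) while those of WT were spread more widely (SD 0.20, n = 4). At 8 months WT libraries lay at 5.98, 6.54 and 5.85 and rTg4510 libraries at 7.62, 7.95 and 7.62, again without overlap and again with WT replicate 2 above the other WT libraries. H2-D1 was 2.50 fold higher at 4 months (log2 fold change 1.32, SE 0.14, FDR 4.03e-07), 2.68 fold higher at 6 months (1.42, SE 0.12, FDR 8.49e-09) and 3.04 fold higher at 8 months (1.6, SE 0.14, FDR 2.36e-08).

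B2m, the light chain that pairs with class I heavy chains, was higher in rTg4510 by 1.76 to 1.81 fold at 4, 6 and 8 months. Its log2 signals at 2 months were 13.40, 13.49, 13.46 and 13.39 in WT and 13.44, 13.49, 13.67 and 13.64 in rTg4510, and the groups overlapped. At 4 months they were 13.57, 13.48 and 13.30 in WT and 14.23, 14.30 and 14.33 in rTg4510. At 6 months they were 13.65, 13.47, 13.83 and 13.67 in WT and 14.40, 14.53, 14.56 and 14.41 in rTg4510. Every rTg4510 library lay above every WT library from 4 months on, and at 8 months the ranges were 14.32 to 14.47 and 13.48 to 13.58. The log2 fold changes of B2m were 0.13 (SE 0.069, FDR 0.389) at 2 months, 0.84 (SE 0.079, FDR 7.86e-08) at 4 months, 0.82 (SE 0.069, FDR 5.28e-09) at 6 months and 0.86 (SE 0.079, FDR 3.92e-08) at 8 months in the limma model, or 1.78, 1.76 and 1.81 fold at the later ages. After quantile normalization in place of median normalization the B2m changes fell below 1.5 fold, with log2 fold changes of 0.54, 0.42 and 0.44 at 4, 6 and 8 months and an FDR of at most 1.45e-05.

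**Figure D1:**
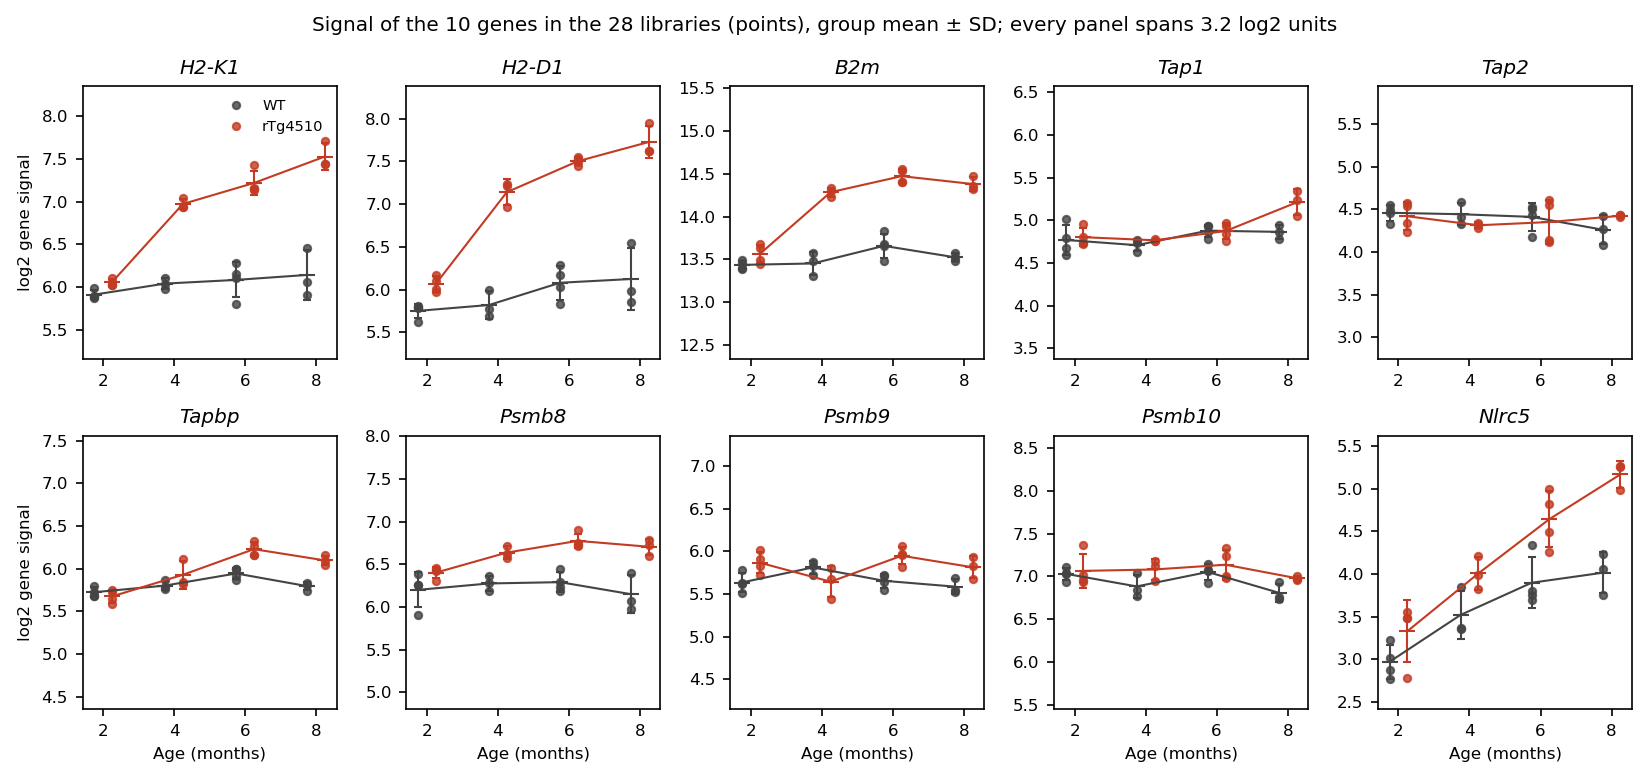
Log2 gene signal (y axis, each panel spanning the same number of log2 units) of the 10 genes against age in months (x axis), with a point for each of the 28 libraries, WT in grey and rTg4510 in red, and lines through group means with SD bars. H2-K1, H2-D1 and B2m rTg4510 points lie above all WT points of the same age from 4 months on, Nlrc5 climbs with age in both genotypes, and the Tap2 and Psmb10 points of the genotypes lie close together.

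Nlrc5, the class I transactivator, was higher in rTg4510 at 6 and 8 months and also increased with age in WT microglia. At 2 months its log2 signals were 2.77, 3.02, 3.23 and 2.88 in WT and 3.56, 3.49, 2.79 and 3.48 in rTg4510, and at 4 months 3.36, 3.36 and 3.84 and 4.21, 3.83 and 3.99. The genotypes overlapped at both ages, and in 3 of the 28 libraries Nlrc5 was no more than 3 counts above the lowest value. At 6 months WT libraries lay at 3.80, 3.75, 4.34 and 3.70 and rTg4510 libraries at 4.26, 5.0, 4.49 and 4.82, with overlap through WT replicate 3. At 8 months WT libraries lay at 4.23, 4.06 and 3.75 and rTg4510 libraries at 5.25, 5.27 and 4.98, apart from each other. The log2 fold changes of Nlrc5 were 0.36 (SE 0.19, FDR 0.386), 0.49 (SE 0.22, FDR 0.132), 0.75 (SE 0.19, FDR 0.00496) and 1.15 (SE 0.22, FDR 0.000472) at the 4 ages in the limma model, which is 1.68 fold at 6 and 2.22 fold at 8 months. A fit of the 6-month libraries alone left the 6-month change at an FDR of 0.0547. From 2 to 8 months Nlrc5 increased by a log2 fold change of 1.04 (SE 0.21, FDR 0.00868) in WT and 1.84 (SE 0.21, FDR 1.55e-06) in rTg4510. With single libraries left out the WT increase was 0.93 to 1.17. It missed the FDR limit only without WT replicate 1 at 8 months (0.93, FDR 0.0551).

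Of the 10 genes, 0 were called higher at 2 months (limma), 3 at 4 months (H2-K1, H2-D1 and B2m), and 4 at 6 and at 8 months (the same 3 and Nlrc5). Over all genes measured 1.58%, 9.47%, 11.3% and 10.5% were called higher at 2, 4, 6 and 8 months. None of the 10 was called lower at any age, against 0.403%, 4.33%, 8.54% and 5.37% of all genes. At 2 months 3 of the 10 had an unadjusted p under 0.05 (H2-D1, Psmb8 and Psmb9), as had 16.5% of all genes. By FDR alone, with no limit on the fold, 0, 4, 7 and 7 of the 10 were higher at the 4 ages, against 4.76%, 14.1%, 19.1% and 16% of all genes. H2-K1, H2-D1 and B2m were called at each of the 3 later ages, which held for 7.25% of all genes. Libraries of the 2 genotypes were completely apart, with rTg4510 above, in 2 of the 10 genes at 2 months, 4 at 4 months, 6 at 6 months and 8 at 8 months, where 7.49%, 19.1%, 18.2% and 21.2% of all genes were. The median log2 fold change of the 10 was 0.13, 0.28, 0.39 and 0.45 at the 4 ages, and that of all genes lay between -0.04 and 0.01.

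**Figure D2:**
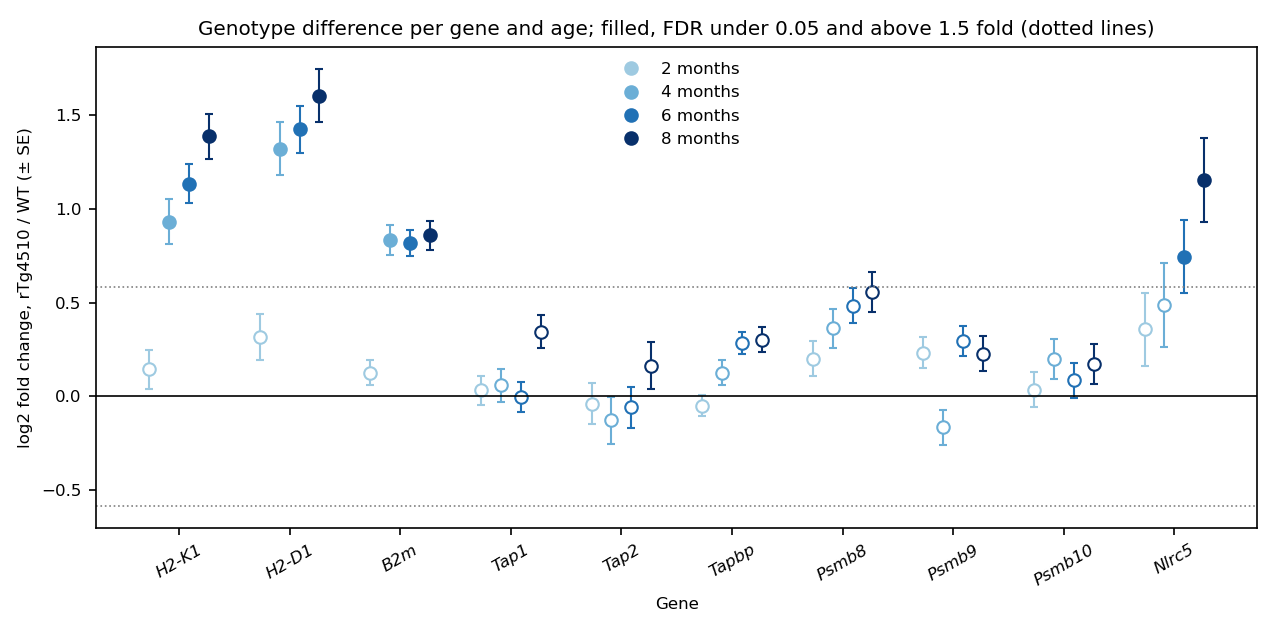
Log2 fold change between rTg4510 and WT (y axis, ± SE) for each of the 10 genes (x axis) at 2, 4, 6 and 8 months, light to dark, filled where the FDR was under 0.05 and the change above 1.5 fold, with dotted lines at 1.5 fold. Filled points occur for H2-K1, H2-D1 and B2m at 4, 6 and 8 months and for Nlrc5 at 6 and 8 months, and the points of the transporter, tapasin and immunoproteasome genes lie inside the dotted lines.

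None of the 3 immunoproteasome subunits passed the call limit. Psmb8 (LMP7, which takes the place of Psmb5) was the subunit with the highest fold change at 4, 6 and 8 months. Its log2 signals at 6 months were 6.19, 6.29, 6.23 and 6.45 in WT and 6.72, 6.90, 6.76 and 6.72 in rTg4510, and at 8 months 6.07, 6.40 and 5.98 and 6.60, 6.79 and 6.73. The genotypes were apart for Psmb8 at 4, 6 and 8 months, but the differences stayed under 1.5 fold. The Psmb8 log2 fold changes were 0.20 (SE 0.092, FDR 0.275), 0.36 (SE 0.11, FDR 0.0168), 0.48 (SE 0.092, FDR 0.000296) and 0.56 (SE 0.11, FDR 0.000408) at 2, 4, 6 and 8 months (limma), or 1.15, 1.28, 1.40 and 1.47 fold. Without WT replicate 2 or rTg4510 replicate 1 at 8 months the Psmb8 change was 0.68 or 0.61 and past the call limit.

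Psmb9 (LMP2, which takes the place of Psmb6) differed little and not in one direction. Its log2 signals at 4 months were 5.88, 5.83 and 5.73 in WT and 5.81, 5.68 and 5.45 in rTg4510, with the lowest values in the transgenic libraries. At 6 months they were 5.73, 5.64, 5.55 and 5.71 in WT and 6.06, 5.82, 5.95 and 5.97 in rTg4510, which did not overlap and lay the other way round. The Psmb9 log2 fold changes were 0.23 (FDR 0.111), -0.17 (FDR 0.224), 0.29 (FDR 0.00766) and 0.23 (FDR 0.0839) from the youngest to the oldest age in limma, with SE of 0.081 to 0.094. Psmb10 (MECL-1, which takes the place of Psmb7) had log2 fold changes of 0.03, 0.20, 0.09 and 0.17 (SE 0.093 to 0.11, FDR 0.207 to 0.924), and its libraries overlapped between genotypes at 2, 4 and 6 months. At 8 months the rTg4510 libraries of Psmb10 (6.96, 6.97 and 7.01) were just above those of WT (6.76, 6.73 and 6.93). The 95% confidence interval of the Psmb10 log2 difference at 8 months, -0.05 to 0.40, includes 0 and stays below 1.5 fold.

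The transporter genes Tap1 and Tap2, whose products together form the peptide pump, did not pass the call limit at any age. Tap1 log2 signals at 6 months were 4.79, 4.86, 4.93 and 4.94 in WT and 4.85, 4.96, 4.76 and 4.93 in rTg4510. At 8 months they were 4.78, 4.94 and 4.87 in WT and 5.35, 5.05 and 5.24 in rTg4510. The Tap1 groups overlapped through 6 months and came apart at 8 months. The Tap1 log2 fold changes in limma were 0.03, 0.06, -0.00 and 0.34 at 2, 4, 6 and 8 months (SE 0.078 to 0.090), with FDR of 0.912, 0.707, 0.97 and 0.00639, and the change at 8 months was 1.27 fold. At 6 months the 95% confidence interval of the Tap1 log2 difference ran from -0.17 to 0.16. Tap2 overlapped between the genotypes at every age, with log2 fold changes of -0.04, -0.13, -0.06 and 0.16 (SE 0.11 to 0.13, FDR 0.386 to 0.923).

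Tapbp, which bridges the transporter and the empty class I molecule, was slightly higher in rTg4510 at 6 and 8 months. Its log2 signals at 6 months were 6.00, 6.00, 5.91 and 5.87 in WT and 6.16, 6.16, 6.33 and 6.27 in rTg4510, and at 8 months 5.74, 5.81 and 5.83 and 6.16, 6.09 and 6.04. The genotypes did not overlap at these ages and did at 2 and 4 months. The Tapbp log2 fold changes in limma were -0.05 (FDR 0.766), 0.13 (FDR 0.191), 0.28 (FDR 0.000517) and 0.30 (FDR 0.00155) at 2, 4, 6 and 8 months, with SE of 0.057 to 0.066. At 1.22 and 1.23 fold the later changes stayed below the call limit.

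Each immunoproteasome subunit was also set against the constitutive subunit whose place it takes, as the difference of their log2 signals within a library, in which a shift common to all genes of a library cancels. Psmb9 minus Psmb6 lay lower in rTg4510 libraries at 4 and 8 months, in groups too small for the test to pass. At 4 months it was -1.65, -1.53 and -1.65 in the WT libraries and -2.23, -2.38 and -2.72 in the rTg4510 libraries, and at 8 months -1.71, -1.57 and -1.70 and -2.59, -2.26 and -2.14. The rTg4510 libraries lay below all WT libraries at these ages, and at 6 months they overlapped through WT replicate 3 (-2.05) and rTg4510 replicate 1 (-1.91). The rTg4510 minus WT differences of Psmb9 minus Psmb6 were -0.18, -0.84, -0.51 and -0.67 at 2, 4, 6 and 8 months, with two-sided exact permutation p of 0.2, 0.1, 0.0571 and 0.1. With 3 libraries against 3 the test cannot go below 0.1, and none of the 12 comparisons of the 3 pairs passed after adjustment (lowest adjusted p 0.229, exact permutation test). Psmb8 minus Psmb5 differed by 0.03, -0.02, 0.23 and 0.53, with the groups apart at 8 months (means 0.59 ± 0.27 in rTg4510 and 0.07 ± 0.20 in WT, SD, n = 3). Psmb10 minus Psmb7 differed by -0.18, -0.00, -0.36 and -0.08, with overlap at every age. Between same-numbered libraries at 6 months all 4 differences were below 0 for Psmb9 minus Psmb6 (-0.28, -0.64, -0.44 and -0.68) and for Psmb10 minus Psmb7 (-0.76, -0.08, -0.05 and -0.55). An exact permutation within these pairs gave p of 0.125 for both, the smallest that 4 pairs allow. At 8 months it gave 0.25, the smallest that 3 allow, for Psmb9 minus Psmb6 and for Psmb8 minus Psmb5. The 3 differences of Psmb8 minus Psmb5 were above 0 there (0.54, 0.60 and 0.44). For Psmb10 minus Psmb7 at 8 months this permutation gave p of 0.5.

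**Figure D3:**
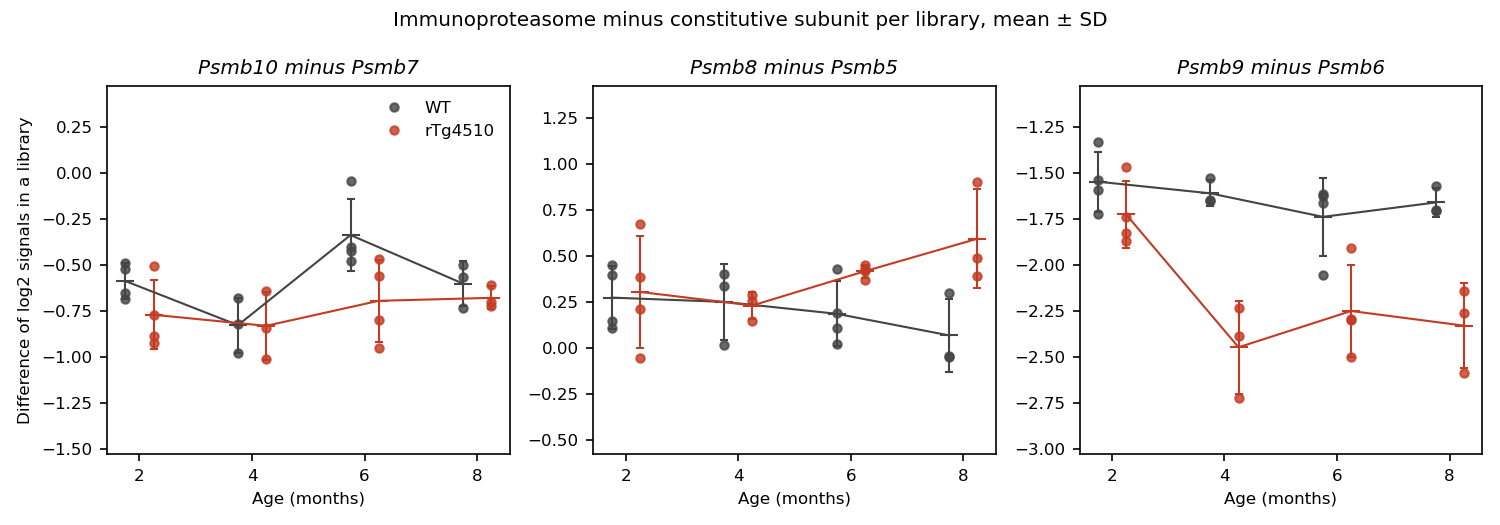
Difference of the log2 signals of an immunoproteasome subunit and its constitutive counterpart in each library (y axis) against age in months (x axis), WT in grey and rTg4510 in red, with group means and SD bars. The rTg4510 points of Psmb9 minus Psmb6 lie between -2.72 and -2.14 at 4 and 8 months, below the WT points, while those of Psmb10 minus Psmb7 overlap with WT at each age.

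Whether the genotype effect differed between ages was tested in the same limma model. Between 2 and 4 months it increased for H2-K1 by a log2 difference of 0.79 (SE 0.16, FDR 0.00336), for H2-D1 by 1.01 (SE 0.19, FDR 0.00198) and for B2m by 0.71 (SE 0.10, FDR 0.000201), 3 of the 10 genes against 3.77% of all genes with an increase. The genotype effect of Psmb9 went the other way by -0.40 (SE 0.12) without passing the test (FDR 0.0546). From 4 to 6 months none of the 10 passed (lowest FDR 0.196, for Psmb9), where 0.156% of all genes did in either direction, and the unadjusted p was under 0.05 for Psmb9 alone. From 6 to 8 months none of the 10 passed, nor did any other gene (0%), and the unadjusted p was under 0.05 for Tap1 alone. Between 2 and 8 months the effect increased for H2-K1 (1.24, SE 0.16, FDR 2.67e-05), H2-D1 (1.29, SE 0.19, FDR 0.000121) and B2m (0.73, SE 0.10, FDR 9.64e-05), against 4.85% of all genes. Tapbp passed by FDR alone (0.35, SE 0.088, FDR 0.0122), as 6.65% of all genes did with an increase, and the difference for Nlrc5 did not pass (0.79, SE 0.30, FDR 0.106). These contrasts share the libraries of an age and are given side by side.

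With age, 1 of the 10 genes passed the call limit in WT microglia. Between 2 and 8 months Nlrc5 was the 1 of 10 called higher in WT, where 0.533% of all genes were, and H2-K1 (log2 fold change 0.23, FDR 0.266), H2-D1 (0.37, FDR 0.121) and B2m (0.09, FDR 0.555) did not pass in limma. In rTg4510 microglia 4 of the 10 were called higher over the same span, where 5.72% of all genes were: H2-K1 by 1.47 (SE 0.11, FDR 5.91e-09), H2-D1 by 1.66 (SE 0.13, FDR 1.24e-08), B2m by 0.82 (SE 0.074, FDR 6.06e-08) and Nlrc5 by 1.84 on the log2 scale. Tap1 (0.41, FDR 0.0012), Tapbp (0.42, FDR 3.55e-05) and Psmb8 (0.30, FDR 0.0335) passed by FDR with less than 1.5 fold, which made 7 of the 10 higher by FDR alone against 10.6% of all genes. Psmb9, Psmb10 and Tap2 had log2 fold changes of -0.05, -0.09 and 0.01 with age in rTg4510, none of which passed.

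Class I genes share sequence, and it is not stated how reads that match several genes were counted. In the longest GENCODE M21 transcript of H2-D1, 4.64% of 100-base windows, the length of a read, also occur in transcripts of 9 other genes, most of them in H2-Q1 (4.24%). For H2-K1 and B2m 0% of 100-base windows were shared. All shares given here are for transcripts of the reference genome, not of the haplotypes of these mice, for which sharing was not tested. With 50-base windows the shares were 8.79% for H2-K1 (6.94% with H2-D1) and 14.3% for H2-D1. Among the other heavy chain genes the shares at 100 bases were 13.1% for H2-Q1, 10.8% for H2-Q6, 16.4% for H2-Q7 and 14.2% for H2-T22. They were 11.8% for H2-T10, 7.28% for H2-T23, 14.6% for Cd1d1 and 23.3% for Cd1d2, so that all these genes are uncertain one by one. No share was computed for H2-Q8 and H2-Q9. None of the other members shared more than 0.107% at 100 bases.

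Heavy chain genes other than H2-K1 and H2-D1 were also among those higher in rTg4510. Of 26 such genes 19 are in the table, and 0, 3, 7 and 9 of them were called higher at 2, 4, 6 and 8 months, with 0, 2, 1 and 0 called lower. Of all genes 9.47%, 11.3% and 10.5% were called higher at the 3 later ages, and 4.33% lower at 4 months. With single libraries left out the number higher was 1 to 4 at 4 months (1 without WT or rTg4510 replicate 2), 4 to 9 at 6 months (4 without WT replicate 2) and 5 to 10 at 8 months (5 without WT replicate 3), and the number lower at 4 months was 0 to 2 (0 without rTg4510 replicate 1, and 1 without rTg4510 replicate 4 or any of the WT libraries). Their median log2 fold change was 0.00, 0.43, 0.48 and 0.60 at the 4 ages. H2-Q1, a nonclassical heavy chain of the Q region, was highest at 6 months (1.39, SE 0.18, FDR 3.45e-06, limma). H2-Q8 followed at 6 months (1.24, SE 0.33, FDR 0.00562), and H2-Q6, H2-Q7 and H2-Q9, which lie beside it and are much alike, had 1.2, 1.21 and 1.16. H2-Q7 and H2-Q9 were no more than 3 counts above the lowest value in 11 and 9 of the 28 libraries. H2-T23 (Qa-1), a ligand of inhibitory receptors on NK cells, had log2 fold changes of 0.12, 0.01, 0.33 and 0.44 at the 4 ages and passed by FDR alone at 6 and 8 months (FDR 0.00361 and 0.00162). H2-Q4 was the lowest of those called higher at 6 months (0.62, FDR 0.00351), and missed the limit in a fit of the 6-month libraries alone (FDR 0.0929). Cd1d1, which presents lipids to NKT cells, was the gene called lower at 6 months (-0.75, SE 0.20, FDR 0.00521).

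Among the 3 constitutive catalytic subunits, Psmb6 was called higher at 4, 6 and 8 months, with log2 fold changes of 0.41 (FDR 0.0197), 0.67 (FDR 0.000263), 0.80 (FDR 2.96e-06) and 0.90 (FDR 6.59e-06) at the 4 ages in limma and SE of 0.10 to 0.12. The Psmb6 signals at 8 months ranged from 8.07 to 8.26 in rTg4510 and from 7.10 to 7.39 in WT, without overlap. With the 4 libraries that failed QC added, the Psmb6 changes no longer passed (FDR 0.398, 0.202 and 0.181 at 4, 6 and 8 months). Psmb5 had log2 fold changes of 0.17, 0.38, 0.25 and 0.03 and Psmb7 of 0.22, 0.20, 0.44 and 0.25, none of them called. Of the other 11 subunits of the 20S core, 1, 8, 8 and 7 were higher by FDR alone at the 4 ages. The shares of all genes were 4.76%, 14.1%, 19.1% and 16%. Of these subunits only Psmb4 at 6 months exceeded 1.5 fold (0.59, SE 0.052, FDR 1.11e-08), and it fell to 0.46 after quantile normalization. Of 17 genes of the 19S particle, which unfolds substrates, Psmd8 at 8 months was the only one called (0.66, FDR 0.000116). At that age 10.5% of all genes were called higher. Psme1 (PA28 alpha), part of the activator that favours class I peptides, was called at 4, 6 and 8 months with log2 fold changes of 0.65, 0.72 and 0.70 (SE 0.064 to 0.074, FDR at most 7.96e-07), and its partner Psme2 (PA28 beta) had 0.46, 0.37 and 0.43, below 1.5 fold. After quantile normalization the Psme1 change at 4 months was below 1.5 fold (0.55). With the 4 libraries that failed QC added, Psme2 was called at 4 months (0.78, FDR 0.00274). In the main fit Psme1 was the 1 called among 9 genes of proteasome activation and assembly. The shares of all genes called higher at 4, 6 and 8 months were 9.47%, 11.3% and 10.5%.

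Of the 10 helpers of peptide loading and trimming on the list, 0 were called at any age, with an unadjusted p under 0.05 in 2, 3, 4 and 2 of them (limma), where 16.5%, 33.6%, 43.0% and 35.4% of all genes had one. Calr, Pdia3 and Canx, chaperones that fold and load class I molecules, had log2 fold changes of 0.16, 0.12 and 0.28 at 6 months, of which Canx passed by FDR (0.00663, limma). Erap1, which trims peptides to length, had 0.05 at 6 months (FDR 0.565).

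**Figure D4:**
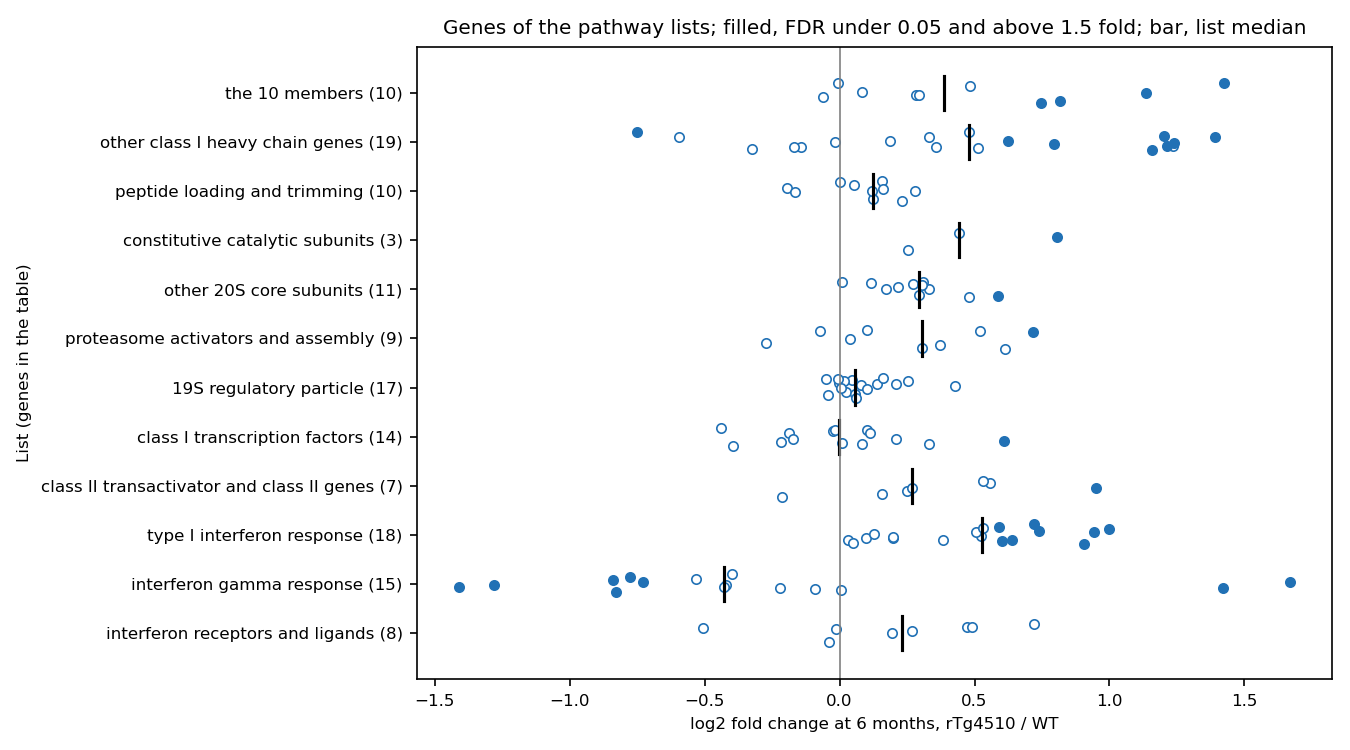
Log2 fold change between rTg4510 and WT at 6 months (x axis) of each gene in the lists (y axis, with the number of genes in the table), filled where the FDR was under 0.05 and the change above 1.5 fold, and a bar at the list median. The medians are 0.39 for the 10 genes, 0.48 for the other heavy chains, 0.12 for loading and trimming and -0.43 for the interferon gamma response, whose filled points lie on both sides of 0.

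Of 14 transcription factors of class I genes, Irf8 was called at 6 months (log2 fold change 0.61, SE 0.11, FDR 9.47e-05) and Irf1 at 8 months (0.82, SE 0.12, FDR 1.22e-05), and none was called lower. At these 2 ages 11.3% and 10.5% of all genes were called higher. Irf1, which binds the IRF element, had 0.22, -0.14 and 0.33 at 2, 4 and 6 months. Rfx5, a DNA-binding partner of NLRC5, had -0.23, -0.36, -0.44 and -0.31 and was lower by FDR alone at 6 months (0.0235, limma). The Irf8 change was below 1.5 fold after quantile normalization (0.52), and that of Irf1 missed the FDR limit in a fit of the 8-month libraries alone (0.0511).

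MHC class II genes were set beside those of class I. H2-DMa, which edits class II peptides, was called at all 4 ages, with log2 fold changes of 0.70, 0.89, 0.95 and 0.80 (SE 0.11 to 0.13, FDR 0.000301 or less, limma), although a fit of the 8-month libraries alone gave an FDR of 0.0691. Cd74, the invariant chain, was called at 8 months (0.71, SE 0.23, FDR 0.0241). Ciita, the class II relative of Nlrc5, had -0.03, -0.43, -0.21 and -0.01 and did not pass. The other 4 class II genes of the list were not called. Of the 7 genes on the list, 1, 1, 1 and 2 were called higher at the 4 ages and 0 lower. Over all genes 1.58%, 9.47%, 11.3% and 10.5% were called higher.

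Of 18 genes that respond to type I interferon, 0, 4, 8 and 7 were called higher at 2, 4, 6 and 8 months and none lower, beside 1.58%, 9.47%, 11.3% and 10.5% of all genes called higher. The 6-month count was 3 without WT replicate 2, rTg4510 replicate 1 or rTg4510 replicate 2 and 4 without WT replicate 1. At 6 months Ifi44 (log2 fold change 1.0, SE 0.16, FDR 6.03e-05) and Isg15 (0.94, SE 0.36, FDR 0.0481) were highest among those called, and Oasl2 (0.60, FDR 0.0368) and Ifit2 (0.59, FDR 0.00784) lowest. With the replicate number as a block Ifit2 missed the limit at 6 months (FDR 0.0524), as Isg15 and Oasl2 did with the libraries that failed QC added (FDR 0.182 and 0.116). Of 28 fits that each left out 1 library, the 6-month call was lost in 18 for Isg15, 6 for Oasl2 and 4 for Ifit2. Genes of the interferon gamma response moved both ways. Among 15 of them 1, 2, 2 and 2 were called higher and 0, 5, 6 and 3 lower, where 0.403%, 4.33%, 8.54% and 5.37% of all genes were called lower. The number lower at 4 months was 3 without WT replicate 1, WT replicate 2 or rTg4510 replicate 1. Cd274 (PD-L1), a brake on T cells, was higher by 0.75, 2.02, 1.67 and 1.96 at the 4 ages and called at each, and Cxcl10, a chemokine for T cells, by 1.42 at 6 months (FDR 0.00872, but 0.0548 in a fit of the 6-month libraries alone). The guanylate-binding proteins Gbp7 (-1.41, FDR 1.14e-09) and Gbp3 (-1.28, FDR 3.38e-06) were lowest at 6 months. Of 8 interferon receptors, ligands and kinases, Ifngr1 was called lower at 4 months (-0.63, FDR 2.13e-06) and 8 months (-0.62, FDR 1.79e-06), and Ifnar1 higher at 8 months (0.63, FDR 5.36e-06).

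Correlations among the 10 genes ranged widely. Over the 28 libraries the Pearson correlation of H2-K1 and H2-D1 was 0.985, that of H2-D1 and B2m 0.965 and that of H2-K1 and B2m 0.952, while the median over the 45 pairs of the 10 genes was 0.398. With the group means removed these values were 0.75, 0.493 and 0.463, and the median was 0.069. The lowest pair was Tap2 and Psmb10, with -0.364 and -0.623. Outside the 10 genes, the profiles most like the mean standardized profile of the 10 were those of Gdpd3 (0.967), Anxa4 (0.963), Mospd2 (0.96), P2rx4 (0.957) and Ctsh (0.956). After removal of the group means the nearest were H2-DMa (0.782), Hmgn1 (0.756), Plau (0.754), Nrp1 (0.735) and Slc39a2 (0.73). The correlations describe 28 libraries that share genotype, age and normalization, and no test was made of them.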

How the data were processed

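RNA of CD11b-captured forebrain cells had been turned into cDNA and sequenced as paired reads of 100 bases. The authors deposited log2 signals per gene. Exon reads had been summed over runs, exons below 10 counts in over 80% of samples were left out, a robust linear model combined the exons of a gene, and the result was median normalized. GRCm38 stands in the submitters' processing notes. Aligner, counter and annotation are not given in the sources used here, nor is the use of strand. The table has no read totals, so depth is unknown and no counting interval is given. Low values form steps at log2(count + 1.5), from which the distance of 3 counts to the floor was taken. The median of rTg4510 replicate 1 at 2 months was 5.63, and 0 columns of values were left unused.

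Genes were matched to symbols by Entrez number (95.9% of 18588). A linear model per gene with 8 group means and unmoderated variance (20 residual degrees of freedom) was fitted in R 4.3.3 (limma 3.58.1), with no filter and Benjamini-Hochberg adjustment over all genes within a contrast. It was tested on simulated data. Exact permutation tests of the subunit pairs were two-sided. Sequence and figure work used Python 3.11.15 with numpy 2.4.6, pandas 2.3.3, Biopython 1.88 and matplotlib 3.10.9. RefSeq promoter windows were found for 8 of the 10 genes, all but Nlrc5 and Tap2. Of the 2 windows listed for H2-K1 the one with the start farther downstream was used.

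The 10 genes, the lists and the motifs were chosen with earlier results of these data known. Named were all 10 genes, and from each list the 2 highest and 2 lowest of those called at 6 months, besides genes fixed by name, of which 1 is not reported here. Psmd8, H2-Q6, H2-Q7, H2-Q9, Cd74, Ifngr1, Ifnar1, Itgam, Aif1, Tmem119 and Sall1 were named after their values were seen. Replicate numbers are shared by the genotypes. Same-numbered libraries deviated together from their group means at 6 months (r 0.131 to 0.153 over genes) and 8 months (0.15 to 0.291), so numbers were taken to pair libraries there, from the values and not from the labels. At 2 months all 4 r were above 0 (0.0649 to 0.167) and 3 were over 0.1, the limit set for every pair, so whether numbers pair libraries there is unsettled and no pairing was assumed. At 4 months r was -0.0999 to 0.124.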

Additional observations from a re-analysis of the deposited data

Results flagged for a closer look

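Of the 40 sets of 4 libraries tested for a library that stands apart from the rest of its group, 4 held one, and chance gives about 1 in 20. They were H2-K1 in rTg4510 replicate 4 at 6 months (log2 signal 7.43, the others 7.13 to 7.17), H2-D1 in WT replicate 1 at 2 months (5.62, the others 5.78 to 5.81), Nlrc5 in WT replicate 3 at 6 months (4.34, the others 3.70 to 3.80) and Nlrc5 in rTg4510 replicate 3 at 2 months (2.79, the others 3.48 to 3.56).

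The genotype effect differed between ages, by the interaction test in limma, for 3 of the genes. The log2 differences between 4 and 2 months were 0.79 for H2-K1, 1.01 for H2-D1 and 0.71 for B2m. Between 8 and 2 months they were 1.24 for H2-K1, 1.29 for H2-D1 and 0.73 for B2m.

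The rTg4510 libraries that failed QC, which enter comparisons only where all 32 libraries are named, also lay above all kept WT libraries of their age for these genes. In replicate 3 at 4 months the log2 signals were 6.60 for H2-K1, 6.63 for H2-D1 and 13.96 for B2m. In replicate 4 at 8 months they were 7.21 for H2-K1, 6.83 for H2-D1, 13.81 for B2m and 4.97 for Nlrc5.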

How the results depend on the processing

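No result changed direction past its threshold under any alternative. H2-K1 and H2-D1 were called at 4, 6 and 8 months under every alternative run: moderated variance, all 32 libraries, only the 2 groups of an age, quantile normalization, centring on the genes above the median mean signal, a filter at the 25th percentile of signal, the replicate block and each library left out. Quantile normalization took B2m below 1.5 fold at 4, 6 and 8 months and between 8 and 2 months (log2 difference 0.49), and with all 32 libraries the last had an FDR of 0.083. With all 32 libraries Psmb8 was called at 4 months (0.60). With the filter, which removes Nlrc5 and Tap2, 0 of the genes increased with age in WT, and without each library in turn that count was 0 to 1. The number of list genes called higher fell from 12 to 6 at 4 months and from 25 to 13 at 8 months with only the 2 groups of the age, and from 22 to 14 at 6 months with all 32 libraries. Leaving out single libraries gave 14 to 25 at 6 months, with 14 without WT replicate 2. List genes called lower at 4 months numbered 8, 5 with only the 2 groups of the age and 4 to 8 without single libraries (4 without WT replicate 1 or rTg4510 replicate 1, 5 without WT replicate 2), and at 8 months 4, with 2 to 5 (2 without rTg4510 replicate 2).

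With the replicate number as a block the genes called higher were 0, 3, 4 and 4 of 10 at 2, 4, 6 and 8 months, as without it. At 4 months, where the numbers were not taken to pair the libraries, the block moved H2-Q8 past the threshold (0.84, FDR 0.0156) and Cd1d1 out of it (-0.66, FDR 0.102). At 6 and 8 months, among the 10 genes and the list genes named by rule, the block changed only the Ifit2 call at 6 months. Genes named after their values were seen were not followed one by one under the alternatives. Precision is limited by the 3 or 4 libraries of a group, and depth could not be judged.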
